A study of Mus musculus with 3 samples.

Results

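The genes described here encode the machinery that takes a new secretory protein into the endoplasmic reticulum (ER), cuts its signal peptide and adds its N-glycans, together with receptors that return escaped ER proteins from the Golgi. The list holds 35 genes, taken by symbol from the 32285 genes in the deposited matrices, each symbol with 1 row. The members were chosen by results already known from these libraries. Which measured values were used is not recorded. The ratio of ASF-KO to wild type (WT) in beta-like cells is taken here to be among them, and other comparisons may be too, so the values are given as a description. The genes fall into 6 groups by role: the signal recognition particle (SRP), the translocon, the translocon-associated protein (TRAP) complex, the signal peptidase, the oligosaccharyltransferase (OST), and KDEL and p24 receptors.

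Single islet cells of mice 9 months old were profiled in 3 droplet libraries: 1 of WT, 1 of ASF-KO and 1 of SC35-KO. SRSF1 was once called ASF, and SRSF2 was once called SC35; both guide the choice of splice sites. The labels give neither the promoter that drove the deletion, nor the cells it was made in, nor how many mice were pooled. The title of the series asks what both proteins do in diabetes. The kit tags 3' ends and marks each molecule with an identifier (UMI), and a level is the UMIs of a gene summed over the cells of a class and scaled to a total of 1000000 (CPM).

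Secreted and membrane proteins enter the ER as they are made. The SRP binds the signal sequence and brings the ribosome to the Sec61 channel, where TRAP helps some substrates in, the signal peptidase cuts the signal and the OST transfers a preformed glycan to asparagine. Insulin, the main product of beta cells, enters by this route as preproinsulin, whose signal peptide is removed to give proinsulin. Insulin itself carries no N-glycan, while many receptors, granule proteins and lysosomal enzymes of the same cell do.

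With 1 library per genotype there was no replicate, no test between genotypes could be made, and nothing here speaks to the spread between mice. The intervals given are at 95% and hold counting error alone. The libraries held 154099078 UMIs (WT), 148320213 (ASF-KO) and 150116204 (SC35-KO), and 8997, 7082 and 10799 cells passed the filters. Classes were set by hormone or marker share, and each class named below held all of its own marker genes at 10 CPM or more in every library. Beta-like cells numbered 4704, 3860 and 5011 in the order WT, ASF-KO, SC35-KO, alpha-like cells 1316, 1452 and 2667, delta-like cells 707, 623 and 1477, gamma-like cells 233, 98 and 269, and endothelial-like cells 651, 423 and 386. The genes named by the labels were not low in their own libraries. In beta-like cells Srsf1 stood at 38.5 CPM in WT and 36.9 under the label ASF-KO. Srsf2 there stood at 27.6 CPM in WT and 26.6 under SC35-KO. The gene of the other label stood at 53.8 CPM (Srsf2) under ASF-KO and 40.2 (Srsf1) under SC35-KO. Srsf2 under ASF-KO was also above WT in alpha-like (91.4 against 46.8 CPM), delta-like (105 against 55.2), gamma-like (63.1 against 31.1) and endothelial-like cells (175 against 87.2). Since 3' tags may come from outside a deleted exon, levels of the named genes do not check the labels. Both are called here the library labelled ASF-KO or SC35-KO. Exocrine RNA differed between the libraries: the summed level of 10 acinar markers in beta-like cells was 476, 317 and 53.5 CPM in the same order, with 8, 9 and 1 of them at 10 CPM or more and 0 of them at 0. Libraries shared 11 to 28 barcodes.

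Promoters of the members are shown first, as a description of the genes. The ER stress response acts on promoters through short elements that XBP1 and ATF6 are known to bind. Letters of such elements, of CCAAT alone and of the cyclic AMP element were searched on both strands. The search covered the 250 bases upstream of the start in RefSeq (build GRCm38.p6), where 25 of the 35 members had an entry. No entry was held for the other 10: Ssr2, Sec61a1, Srp19, Srp68, Spcs3, Sec11c, Ostc, Kdelr2, Tmed2 and Tram1. The unfolded protein response element TGACGTGG was in 1 of the 25, Kdelr3, and in 0.603% of 27025 genes. Its core ACGTGG, which the longer element contains, was in 7 of 25 members (Ssr1, Ssr3, Sec63, Spcs1, Kdelr3, Tmed10 and Krtcap2) and in 7.84% of genes. The ER stress element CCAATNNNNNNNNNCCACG was in 0 of 25 and 0.130% of genes, and the cyclic AMP element TGACGTCA in 0 of 25 and 1.77%. CCAAT alone, which is part of the ER stress element, was in 11 of 25 and in 37.5% of genes. A match describes letters only and no binding was measured. The 4 promoters below show the full element (Kdelr3), 2 copies of the core (Ssr1), 1 copy (Spcs1) and none (Srp9), each read on the strand of its gene with the start after the last base and matches in capitals, as CCACGT where the core lies on the reverse strand.
Kdelr3, chr15:79516158-79516407, plus strand: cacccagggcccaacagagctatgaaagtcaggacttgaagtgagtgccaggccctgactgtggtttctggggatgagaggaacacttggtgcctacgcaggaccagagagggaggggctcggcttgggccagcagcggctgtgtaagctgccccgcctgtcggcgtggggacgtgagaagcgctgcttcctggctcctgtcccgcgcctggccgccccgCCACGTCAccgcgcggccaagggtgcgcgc
Ssr1, chr13:37994209-37994458, minus strand: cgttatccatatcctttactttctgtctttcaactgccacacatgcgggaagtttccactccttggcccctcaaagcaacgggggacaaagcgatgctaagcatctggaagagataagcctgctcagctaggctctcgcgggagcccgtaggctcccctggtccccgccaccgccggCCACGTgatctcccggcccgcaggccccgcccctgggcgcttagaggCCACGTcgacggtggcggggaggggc
Spcs1, chr14:31001667-31001916, minus strand: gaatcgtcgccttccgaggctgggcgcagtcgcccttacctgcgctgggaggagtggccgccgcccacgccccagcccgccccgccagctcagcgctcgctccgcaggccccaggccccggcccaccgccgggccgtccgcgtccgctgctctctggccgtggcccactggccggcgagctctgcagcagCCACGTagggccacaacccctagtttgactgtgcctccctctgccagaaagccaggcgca
Srp9, chr1:182124487-182124736, plus strand: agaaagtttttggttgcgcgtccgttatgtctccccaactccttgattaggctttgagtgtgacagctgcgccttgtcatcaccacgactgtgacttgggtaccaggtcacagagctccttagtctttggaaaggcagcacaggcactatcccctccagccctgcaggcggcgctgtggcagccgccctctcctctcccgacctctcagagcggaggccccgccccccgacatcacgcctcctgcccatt

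Under the label ASF-KO, most of this machinery stood above WT in beta-like cells when each gene was set against the median gene. Insulin transcripts took 63.9% of beta-like UMIs under ASF-KO and 63.4% under SC35-KO against 53.7% in WT. All genes of a class share 1 total, and in CPM the median measured gene stood at 0.741 times its WT level under ASF-KO and 0.738 under SC35-KO. Relative folds below are divided by these shifts. A gene was measured if either sum reached 10 CPM, and called higher or lower at 1.5-fold from the median gene. Of 34 measured members, 23 were higher, 0 lower and 11 between, with a median relative fold of 1.67. Over all 6566 measured genes 9.09% were higher and 8.19% lower. As the list is taken to have been drawn from this comparison, nothing is read from that difference. On the CPM scale as it stands, 11 members were higher and 1 lower, against 2.16% and 35.6% of all genes. Counts by complex below are parts of the same comparisons, and nothing is read from them either. They stand against 9.09% of genes higher and 8.19% lower under ASF-KO, and 3.66% and 2.6% under SC35-KO.

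**Figure D1:**
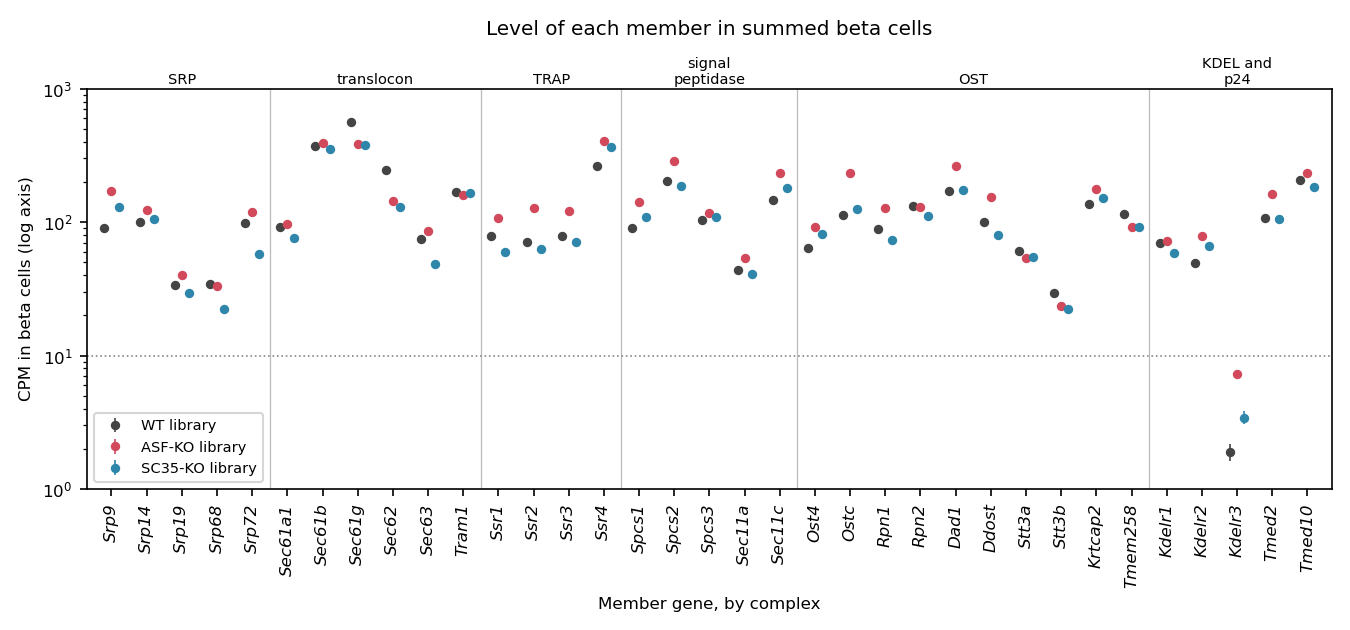
Level of each of the 35 members in summed beta-like cells (y axis, CPM, log scale), by complex, in the WT, ASF-KO and SC35-KO libraries; bars are 95% Poisson intervals of the counts, mostly smaller than the points. The ASF-KO points lie above WT in all of TRAP and the signal peptidase. They lie below WT in Srp68, Sec61g, Sec62, Tram1, Rpn2, Stt3a, Stt3b and Tmem258. Kdelr3 lies under the dotted line at 10 CPM in all 3 libraries.

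The SRP carries the ribosome to the membrane. Srp9 (ENSMUSG00000026511, chr1:182124737-182132407, plus strand, GRCm38), which with Srp14 forms the domain that slows translation, stood at 91.0 CPM in WT, 170 under ASF-KO and 129 under SC35-KO. Both KO libraries were above WT, with relative folds of 2.53 (2.47 to 2.59) and 1.92 (1.87 to 1.98). Srp14 was at 99.7, 123 and 106 CPM, or 1.67 and 1.44 relative to the median gene. Srp72 and Srp68 encode a dimer that holds the particle together. Srp72 stood at 98.0, 119 and 57.2 CPM, so that the KO libraries lay on opposite sides of WT: its relative fold was 1.64 (1.6 to 1.68) under ASF-KO and 0.790 (0.764 to 0.817) under SC35-KO. Srp68 stood at 34.6, 33.3 and 22.1 CPM, with relative folds of 1.30 and 0.867. Srp19, which helps the particle assemble, had relative folds of 1.62 and 1.19. Under ASF-KO 4 of 5 SRP members were higher, and under SC35-KO 1 of 5.

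The translocon was the group with the lowest median relative fold under ASF-KO, at 1.35, with 1 of 6 members higher. Sec61a1, the pore subunit, stood at 91.7 CPM in WT, 97.2 under ASF-KO and 76.7 under SC35-KO, and its relative fold of 1.43 (1.39 to 1.47) under ASF-KO fell short of the 1.5-fold limit. The small subunit gene Sec61b stood at 374, 394 and 354 CPM. Sec61g (ENSMUSG00000078974, chr11:16500530-16508484, minus strand), the other small subunit, stood at 565, 383 and 375 CPM, lower than WT in both KO libraries in CPM and near the median gene in relative terms, at 0.916 and 0.899. Subunits of 1 channel thus stood at different ratios to WT. Sec62 and Sec63 serve proteins that enter after translation, with Sec63 recruiting the chaperone BiP. Sec62 stood at 244, 144 and 130 CPM, the lowest relative folds of the members in both KO libraries, at 0.794 (0.778 to 0.810) and 0.721 (0.705 to 0.737). Sec63 was at 74.7, 85.8 and 48.9 CPM, with 1.55 under ASF-KO and 0.887 under SC35-KO. Tram1, which lies beside the channel, was at 168, 158 and 164 CPM, with 1.28 and 1.32.

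TRAP, a complex of 4 membrane subunits that sits next to the channel and is known to help insulin's precursor enter the ER, had all 4 of its genes higher under ASF-KO, with a median relative fold of 2.05. Ssr2 (ENSMUSG00000041355, chr3:88575876-88588419, plus strand) stood at 71.5 CPM in WT, 127 under ASF-KO and 62.5 under SC35-KO. The SC35-KO value lay below WT in CPM and above it relative to the median gene, at 1.18 (1.14 to 1.23), while the ASF-KO value lay above WT on both scales, at 2.40 (2.33 to 2.47). Ssr1 was at 78.1, 107 and 59.9 CPM and Ssr3 at 79.2, 120 and 70.5. Ssr4, the X-linked subunit, was the exception in the SC35-KO library, at 365 CPM against 265 in WT and 404 under ASF-KO. Its relative fold was 1.86 (1.83 to 1.89) under SC35-KO and 2.06 (2.02 to 2.09) under ASF-KO, while the other 3 subunits had 1.04 to 1.21 under SC35-KO, where their CPM was below WT.

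The signal peptidase cuts the signal from the entering chain. All 5 of its genes were higher under ASF-KO, with a median relative fold of 1.91, and 2 of 5 under SC35-KO, with 1.44. The catalytic subunit has alternative forms encoded by Sec11a and Sec11c. Sec11c stood at 146 CPM in WT, 234 under ASF-KO and 180 under SC35-KO, with relative folds of 2.16 (2.12 to 2.20) and 1.67 (1.64 to 1.71). Sec11a was at 43.7, 54.2 and 40.9 CPM, with 1.67 (1.61 to 1.74) and 1.27 (1.21 to 1.32), so the intervals of the paralogues did not meet in either KO library. Spcs1, an accessory subunit, was at 90.03, 142 and 109 CPM, or 2.13 and 1.64 relative to the median gene. Spcs2 and Spcs3, further subunits, had relative folds of 1.91 and 1.54 under ASF-KO and 1.24 and 1.44 under SC35-KO.

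The OST transfers the glycan, in a form with the catalytic subunit Stt3a that works at the channel and a form with Stt3b. Neither catalytic subunit was called: Stt3a stood at 60.5 CPM in WT, 54.0 under ASF-KO and 55.1 under SC35-KO, and Stt3b at 29.3, 23.6 and 22.2. Both lay below WT in CPM and slightly above the median gene, at 1.21 and 1.09 under ASF-KO and 1.23 and 1.02 under SC35-KO. Most of the other subunits lay further out under ASF-KO. Ostc (ENSMUSG00000041084, chr3:130695912-130709444, minus strand), which ties the Stt3a form to the channel, stood at 113, 233 and 125 CPM, the highest relative fold of the measured members under ASF-KO at 2.79 (2.73 to 2.85), against 1.5 (1.46 to 1.54) under SC35-KO. Dad1 was at 170, 264 and 175 CPM, Ddost at 99.4, 155 and 80.3, Rpn1 at 88.5, 128 and 72.9, and Ost4 at 63.8, 92.5 and 81.6. These 4 are core subunits that both forms share. Their relative folds under ASF-KO were 2.10, 2.11, 1.96 and 1.96, and under SC35-KO 1.39, 1.09, 1.12 and 1.73. Rpn2, another core subunit, was at 133, 129 and 111 CPM, or 1.32 and 1.13, and was not called. Krtcap2, which like Ostc belongs to the Stt3a form, stood at 138, 177 and 153 CPM, with 1.74 under ASF-KO and 1.5 under SC35-KO, just under the limit. Tmem258, a small subunit, was at 114, 91.7 and 91.7 CPM, below WT in both KO libraries, with 1.09 in each relative to the median gene. Of the 10 OST genes 6 were higher under ASF-KO and 2 under SC35-KO.

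KDEL receptors bring ER residents back from the Golgi, and the p24 proteins Tmed2 and Tmed10 carry cargo between the compartments. Kdelr2 stood at 49.6 CPM in WT, 78.3 under ASF-KO and 66.4 under SC35-KO, with relative folds of 2.13 (2.06 to 2.21) and 1.81 (1.75 to 1.88). Its paralogue Kdelr1 was at 69.4, 72.6 and 58.4 CPM, with 1.41 and 1.14. Kdelr3 stayed under 10 CPM in beta-like cells and is not among the 34 measured members: it stood at 1.88 CPM (202 UMIs), 7.32 (790) and 3.42 (311), with relative folds of 5.26 (4.5 to 6.17) and 2.46 (2.06 to 2.96). All 3 libraries were low for Kdelr3, and WT lowest. Tmed2 was at 107, 161 and 106 CPM, with 2.05 and 1.35. Tmed10, at 207, 232 and 184 CPM, was the member just inside the limit under ASF-KO, at 1.52, as Sec61a1, at 1.43, was just outside.

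Under the label SC35-KO, 7 of 34 measured members were higher in beta-like cells and 0 lower, with a median relative fold of 1.22; 3.66% of 6533 genes were higher and 2.6% lower. The 7 were Ssr4, Srp9, Spcs1, Sec11c, Ost4, Ostc and Kdelr2. Both KO libraries are compared with the same WT library, so their ratios are not independent of each other. The direction of the whole list depends on the scale here: its median log2 ratio was 0.29 relative to the median gene and -0.15 in CPM as it stands, where 0 members were higher and 5 lower, against 0.612% and 28.0% of all genes. Each of the 7 had more CPM than WT. Set directly against each other, the KO libraries differed by a median relative fold of 0.787 (SC35-KO over ASF-KO). Of the members, 0 were higher and 10 lower, against 7.18% and 7.54% of 5766 genes. The list is taken to have been selected on the ASF-KO values used here, so nothing is read from these counts. The lowest of the 10 were Srp72 at 0.484 (0.469 to 0.50), Ssr2 at 0.496 (0.481 to 0.512) and Ddost at 0.522 (0.508 to 0.537). Sec61g, Tmem258, Stt3a and Tram1 lay between 0.987 and 1.04.

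**Figure D2:**
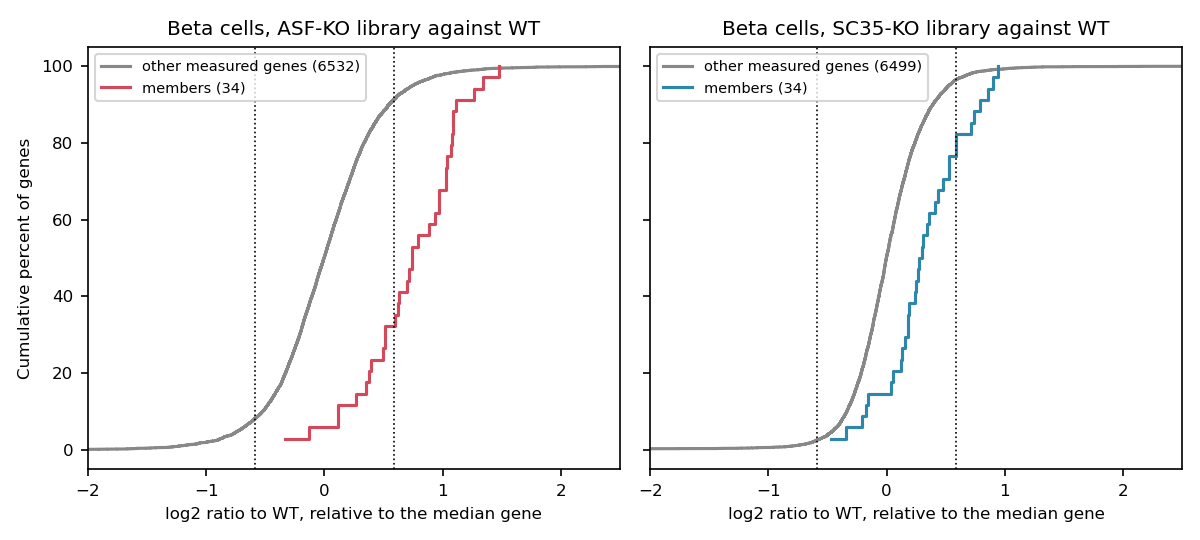
Cumulative percent of genes (y axis) by log2 ratio to WT relative to the median gene (x axis) in beta-like cells, for the 34 measured members and all other measured genes; dotted lines mark 1.5-fold. The members' median is at 0.74 under ASF-KO and 0.29 under SC35-KO.

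Cell by cell, the members are summed here in cells whose values the list is taken to have been drawn from. The order of the libraries is therefore no support. Hormone genes and mitochondrial genes were left out of the total for this measure, since they differ between libraries. The 35 members made up 1.15% of the remaining UMIs of beta-like cells in WT, 1.82% under ASF-KO and 1.43% under SC35-KO. The median cell had 114, 180 and 141 member UMIs per 10000, and the middle 50% of cells lay from 99.0 to 130 in WT, from 158 to 201 under ASF-KO and from 121 to 162 under SC35-KO. The lowest decile of ASF-KO cells ended at 139, above the upper quartile of WT. Cells of 1 library are not replicates, and these ranges describe those libraries. Of all beta-like UMIs, the members made up 0.440% in WT, 0.524% under ASF-KO and 0.406% under SC35-KO, which lay below WT there.

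**Figure D3:**
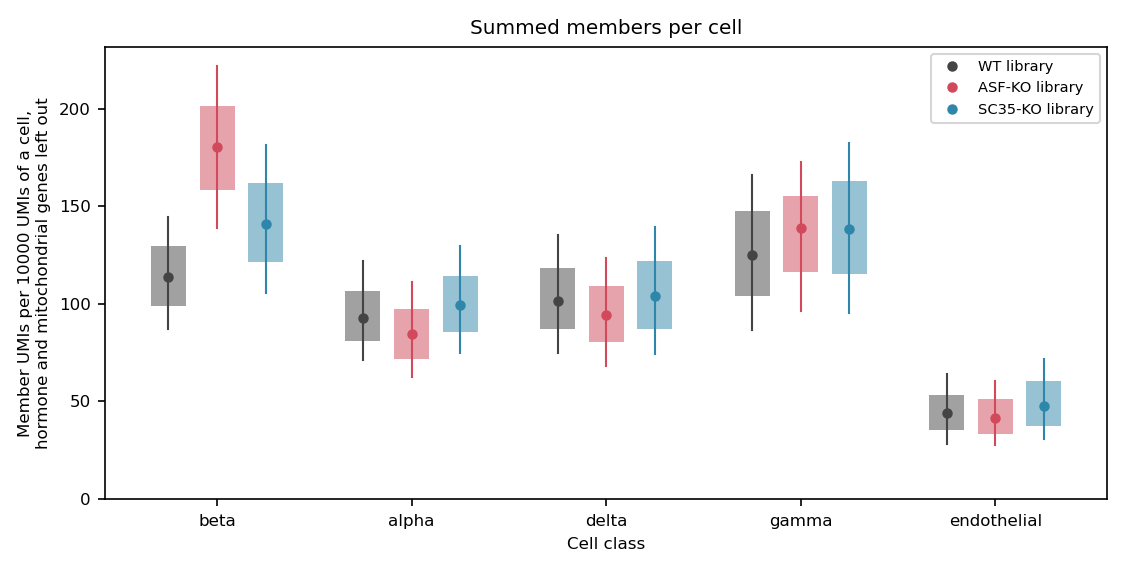
Member UMIs per 10000 UMIs of a cell without hormone and mitochondrial genes (y axis), by class and library; points are medians over cells, boxes the middle 50% and lines the range from the lowest to the highest decile. Beta-like cells of the ASF-KO library have a median of 180 against 114 in WT, while alpha-like medians lie between 84.5 and 99.5. Medians in the order WT, ASF-KO, SC35-KO are 125, 139 and 138 in gamma-like cells. They are 102, 94.5 and 104 in delta-like cells and 44.3, 41.4 and 47.9 in endothelial-like cells.

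In alpha-like cells, which send glucagon through the same entry route, the members lay around the median gene. Under ASF-KO 0 of 35 measured members were higher and 3 lower, with a median relative fold of 0.918, against 4.39% and 6.79% of 8147 genes. Under SC35-KO 3 were higher and 0 lower, with a median of 1.07, against 2.59% and 2.7% of 7887 genes. The members made up 0.941% of UMIs without hormone and mitochondrial genes in WT, 0.862% under ASF-KO and 1.0% under SC35-KO. Ostc stood at 238, 247 and 250 CPM in alpha-like cells, a relative fold of 1.0 (0.954 to 1.05) under ASF-KO where beta-like cells had 2.79. Ssr2 stood at 197, 159 and 171 CPM, with 0.782 (0.738 to 0.829) and 0.999 (0.949 to 1.05).

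The 3 lower members in ASF-KO alpha-like cells were Sec61g, Sec62 and Tmem258. Sec61g stood at 974 CPM in WT, 432 under ASF-KO and 691 under SC35-KO, so both KO libraries were below WT and ASF-KO lowest. Its relative fold was 0.429 (0.416 to 0.443) under ASF-KO. Tmem258 (ENSMUSG00000036372, chr19:10204014-10207824, plus strand), the small OST subunit, was at 253, 106 and 196 CPM, or 0.406 (0.381 to 0.432). Sec62 was at 281, 162 and 172 CPM, or 0.556 (0.527 to 0.587). These 3 genes were also called lower in each of the other classes compared except beta-like cells. Delta-like, gamma-like and endothelial-like cells gave Sec61g relative folds of 0.415, 0.420 and 0.382, and Tmem258 0.409, 0.426 and 0.492. Sec62 had 0.556, 0.482 and 0.490. The mitochondrial share of UMIs differed along with these calls: it was 2.68% in WT and 4.25% under ASF-KO in alpha-like cells, 2.6% and 3.58% in delta-like cells, 1.74% and 3.27% in gamma-like cells, 2.84% and 3.78% in endothelial-like cells, and 3.16% and 2.91% in beta-like cells. Its part in the 3 genes' values was not tested. In beta-like cells the same genes had 0.916, 1.09 and 0.794 for Sec61g, Tmem258 and Sec62, all below WT in CPM.

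Delta-like cells under ASF-KO had 0 of 35 members higher and 4 lower, with Sec61b at 0.649 as the other 1, against 5.57% and 7.82% of genes. In gamma-like cells 0 were higher and 4 lower, with Kdelr3 at 0.633, against 9.8% and 12.8%. The gamma-like counts depend on the scale: the median gene stood at 1.38 times WT, and in CPM as it stands 11 members were higher and 3 lower, against 39.4% and 4.17% of all genes. With hormone and mitochondrial genes left out of the total 6 were higher and 3 lower, against 27.0% and 5.72%. Endothelial-like cells had 0 of 34 higher and 4 lower, with Srp68 at 0.489, against 9.87% and 12.9%. The median relative folds of the members were 0.960, 0.995 and 0.968. Acinar markers stood at 5315 CPM in WT gamma-like cells against 494 and 65.0 in the KO libraries, and the part of this in the gamma-like values was not tested; with cells at 0.1% acinar UMIs or more left out, 0 members were higher and 4 lower. Endothelial-like sums were small, with 202 Sec61g and 65 Tmem258 UMIs under ASF-KO. Insulin, which these cells should lack, was 2.41% of endothelial-like UMIs in WT, 5.61% under ASF-KO and 4.74% under SC35-KO, and in alpha-like, delta-like and gamma-like cells between 1.5% and 1.53% in WT, 2.46% and 2.87% under ASF-KO, and 1.98% and 2.98% under SC35-KO. The part of such beta-cell RNA in the values of these classes was not tested.

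Kdelr2 was the member called higher in most classes under SC35-KO, in 4 of 5. It stood at 87.6 CPM in WT and 134 under SC35-KO in alpha-like cells, 75.1 and 127 in delta-like cells, and 55.0 and 110 in gamma-like cells. Its relative folds were 1.76 (1.64 to 1.88), 1.68 (1.49 to 1.88) and 2.09 (1.75 to 2.49), and 1.23 (0.974 to 1.54) in endothelial-like cells, where it was not called. Ost4 had 1.75 in alpha-like and 1.51 in delta-like cells, and Srp9 1.61 in alpha-like cells and 1.39 in delta-like cells. Lower members under SC35-KO were Sec62 (0.642), Srp68 (0.647) and Kdelr3 (0.650) in delta-like cells, Sec62 in gamma-like cells (0.649), and Sec62 (0.608) and Srp68 (0.647) in endothelial-like cells. Stt3a was higher in endothelial-like cells (1.66). Background shares under SC35-KO were 3.3% higher and 3.96% lower in delta-like cells, 6.18% and 8.25% in gamma-like cells, and 9.06% and 11.1% in endothelial-like cells.

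**Figure D4:**
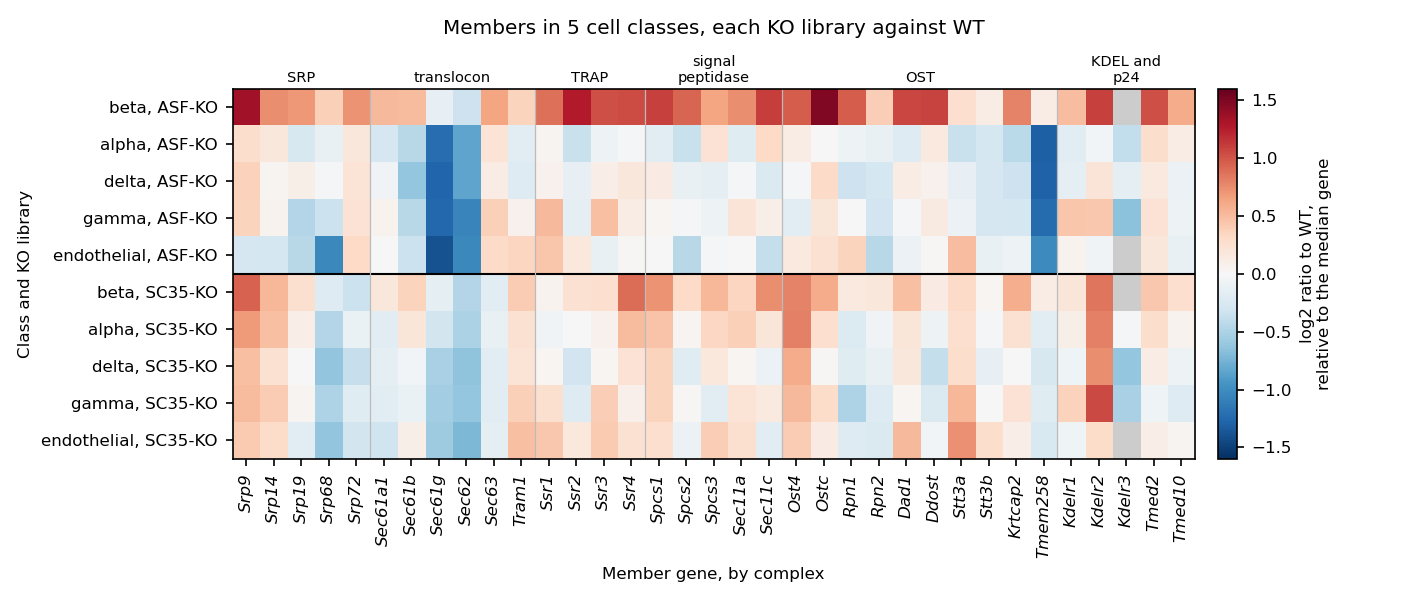
Log2 ratio to WT relative to the median gene (colour) of each member (columns, by complex) in 5 cell classes of the ASF-KO library (upper 5 rows) and the SC35-KO library (lower 5 rows); grey marks Kdelr3 where it was under 10 CPM in both sums. Beta-like cells under ASF-KO form the warm row, and Sec61g, Sec62 and Tmem258 the cold columns of the 4 rows beneath it.

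The contrast between classes was measured directly as the relative fold in beta-like cells over that in another class, for members measured in both. Under ASF-KO this quotient was above 1 for 34 of 34 members against alpha-like cells, with a median of 1.85 and a range from 1.32 to 3.07, and its counting interval excluded 1 for 34. Over all genes 50.9% were above 1. How many of all genes had an interval that excluded 1 was not counted, so nothing is read from counts beyond counting error. Ssr2 had the highest quotient, at 3.07 (2.88 to 3.27), followed by Ostc at 2.78 (2.63 to 2.93) and Tmem258 at 2.68 (2.5 to 2.86), while Spcs3 and Stt3b had the lowest, at 1.32 each. The quotient of Sec61g was 2.13 (2.06 to 2.21), so this subunit, near the median gene in beta-like cells, differed between the classes as others did. A quotient above 1 can come from a low fold in the other class. Tmem258 had 1.09 in beta-like and 0.406 in alpha-like cells, and Sec62 had 0.794 and 0.556. Against delta-like cells 34 of 34 were above 1 (median 1.82), against gamma-like cells 34 (1.70, with 30 beyond counting error) and against endothelial-like cells 33 (1.82, with 31). The exception was Stt3a, at 0.858 (0.618 to 1.19). Of all genes 53.7%, 56.8% and 54.4% were above 1 against delta-like, gamma-like and endothelial-like cells. Under SC35-KO the medians were 1.14, 1.245, 1.24 and 1.23 against alpha-like, delta-like, gamma-like and endothelial-like cells. In that library 30, 34, 28 and 26 of 34 members were above 1, against 50.4%, 53.8%, 54.4% and 53.1% of all genes. There Sec11c had the highest quotient against alpha-like cells, at 1.46 (1.37 to 1.57), and Srp72 the lowest, at 0.850 (0.790 to 0.914). All quotients rest on the same few libraries, and the beta-like values in them are taken to be among those the list was selected on.

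Within a library, where genotype and preparation are shared, the same genes can be set between classes. In WT the members stood at a median of 1.0 relative to the median gene in beta-like against alpha-like cells, with 3 higher (Spcs3, Sec11c and Tram1) and 3 lower (Ssr2, Ssr4 and Kdelr3), against 15.7% and 13.6% of genes. Under ASF-KO the median was 1.87, with 29 of 35 higher and 0 lower, against 15.9% and 14.1%. Under SC35-KO it was 1.09, with 5 higher and 2 lower, against 14.6% and 13.3%. Ssr2 was at 0.557 times its alpha-like level in WT, 1.68 under ASF-KO and 0.654 under SC35-KO, each relative to the median gene. Sec11c was among the higher genes in all 3 libraries. The beta-like levels under ASF-KO enter these values, so they are not independent of how the list was drawn up. Against delta-like cells the medians were 1.05, 1.84 and 1.30, against endothelial-like cells 1.72, 3.23 and 1.89, and against gamma-like cells 0.741, 1.28 and 0.882. Kdelr3 was lower in beta-like than in gamma-like cells in every library, at 1.88 against 36.5 CPM in WT, 7.32 against 31.9 under ASF-KO and 3.42 against 24.5 under SC35-KO.

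Beta-like cells were split within each library into 3 equal groups by insulin share, to describe how the members vary with it. These are the same cells and the same comparison with WT that the list is taken to have been drawn from, so the order of the libraries is no support. The members' share of UMIs without hormone and mitochondrial genes was 1.09%, 1.13% and 1.22% from the lowest to the highest insulin group in WT, 1.67%, 1.83% and 1.96% under ASF-KO, and 1.34%, 1.42% and 1.54% under SC35-KO. Within each library the share was higher in groups with more insulin. The median insulin share ran from 45.7% to 59.6% of UMIs over the groups in WT, from 57.5% to 68.7% under ASF-KO and from 55.7% to 69.0% under SC35-KO. Depth differed too, with median UMIs of 19430.5 in the lowest and 25411 in the highest group in WT. These were 22279 and 30875 under ASF-KO, and 13860 and 20617 under SC35-KO. Without hormone and mitochondrial genes the medians were 8921 and 8234, 7670 and 7691, and 4983 and 4842. The part of depth in the members' share was not tested. Members differed among themselves: Ssr4 in the highest insulin group was at 1.51, 1.46 and 1.44 times the lowest group in WT, ASF-KO and SC35-KO, and Sec11c at 1.33, 1.34 and 1.34. Ssr1 was at 0.896, 0.90 and 0.916, and Stt3a at 0.885, 0.966 and 0.920. Insulin share and the rest of a cell's RNA share 1 total, and hormones were left out of the denominator for that reason.

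**Figure D5:**
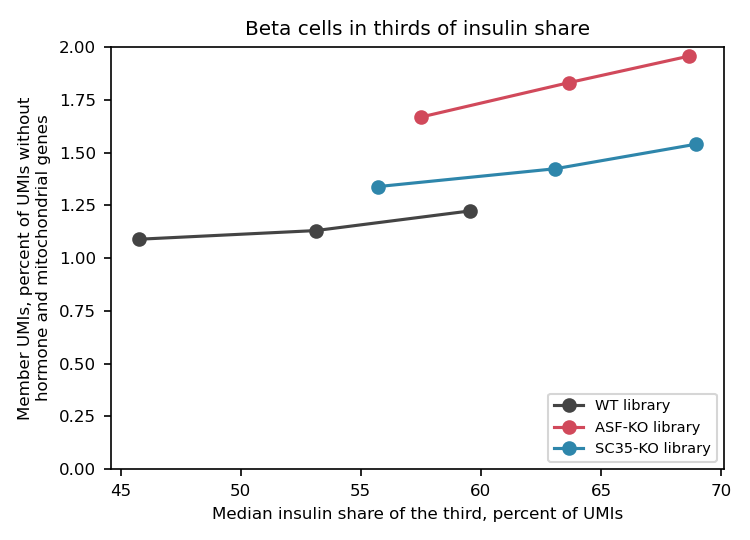
Member UMIs as percent of UMIs without hormone and mitochondrial genes (y axis) against the median insulin share (x axis, percent of UMIs) of 3 equal groups of beta-like cells in each library; lines join groups of 1 library. The ASF-KO line runs from 1.67% to 1.96%, the SC35-KO line from 1.34% to 1.54% and the WT line from 1.09% to 1.22%.

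Most beta-like cells lay in other joint clusters from 1 library to the next: clusters 3 and 4 in WT, 4 and 9 under ASF-KO, and 8 and 10 under SC35-KO. In each of the 4 clusters with at least 100 beta-like cells of all 3 libraries the members' share was lowest in WT and highest under ASF-KO: 1.17%, 1.81% and 1.27% (WT, ASF-KO, SC35-KO) in cluster 3, 1.05%, 1.66% and 1.2503% in cluster 4, 1.23%, 1.95% and 1.43% in cluster 8, and 1.34%, 2.07% and 1.48% in cluster 10. This order repeats, in parts of the same cells, the comparison the list is taken to have been drawn from. Cluster 7, whose markers were led by acinar genes, held 643 of the WT and 312 of the ASF-KO beta-like cells, with 1.23% and 1.78%. With cells at 0.1% acinar UMIs or more left out, 23 members were higher under ASF-KO and 8 under SC35-KO. Median depth of beta-like cells also differed, at 22447.5, 26716.5 and 17394 UMIs. With each cell thinned to 5000 UMIs, 21 and 6 members were higher.

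Genes of neighbouring steps were taken from lists chosen with earlier results of these data known, so they give the setting and no support. Their counts under ASF-KO stand against 9.09% of all measured genes higher and 8.19% lower. Under ASF-KO in beta-like cells, 12 of 12 ER chaperones and folding enzymes were higher, from P4hb, a disulphide isomerase, at 1.5 to the chaperone partner Sdf2l1 at 7.87 (7.58 to 8.17). Of 14 genes for glycan trimming and lectin quality control, 6 were higher and 0 lower, with the cargo lectin Lman1 at 2.25 (2.21 to 2.29) and the mannosidase Man1b1 at 0.717. COPII and COPI are the coats of vesicles leaving and returning to the ER: 7 of 12 COPII genes were higher, with Sec13 at 1.84 and Sec24b at 0.728, and 6 of 10 COPI genes, with Copz2 at 2.64 and Copg2 at 0.852. Other TMED receptors had 2 of 7 higher and 1 lower, with Tmed9 at 2.33 and Tmed8 at 0.660. Of the other SRP and translocon genes 2 of 4 were higher and 1 lower: the SRP receptor gene Srpr, at 117 CPM in WT and 207 under ASF-KO, had a relative fold of 2.38 (2.33 to 2.43), and Sec61a2, a second pore gene, was at 14.0 and 6.42 CPM, or 0.620 (0.566 to 0.679).

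Lists for other routes into the membrane, and for the glycan donor, are again given for beta-like cells. They are read against the 9.09% of all genes that were higher and 8.19% lower under ASF-KO. In the ER membrane complex, which inserts membrane proteins, 1 of 10 was higher (Emc4, 1.53) and 1 lower (Emc1, 0.621). Of 6 multipass translocon genes 0 were called, from Wdr83os at 1.41 to Tmco1 at 0.749, and of 6 genes for tail-anchored proteins 0, from Ubl4a at 1.19 to Sgta at 0.857. Synthesis of the lipid-linked glycan, the donor of the OST, had 2 of 10 higher and 0 lower, with Alg5 at 1.89 and Dpm3 at 0.684. Of the paralogous OST subunits that belong to the Stt3b form, Magt1 was at 1.54 (1.51 to 1.58) and Tusc3 at 1.14. Under SC35-KO the 11 lists of both paragraphs together had 3 of 93 measured genes higher, Sdf2l1 (1.99), Copz2 (1.71) and Alg5 (1.54), and 0 lower. That is 3.23% higher, near the 3.66% of all genes. Hspa5, the gene of BiP, had the lowest relative fold of the chaperones, at 0.775 (0.763 to 0.787). These folds are relative to the median gene.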

How the data were processed

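Per the labels' protocols, islet cells were picked by hand after collagenase digestion and libraries made with a Chromium 3' kit. The authors deposited unnormalized whole-number UMI counts per gene and barcode. Cell Ranger 5.0.0, Seurat, STAR and the mm10 build are named, with no roles, in the submitters' processing notes; how reads of near-identical genes were treated is not given in the sources used here. The lowest totals per deposited barcode were 500 to 557 UMIs.

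The cell filter asked for 500 genes and 1000 UMIs or more and no more than 20% mitochondrial UMIs (978 WT, 5095 ASF-KO and 2234 SC35-KO barcodes removed), and doublets were marked by Scrublet in scanpy 1.11.5 (291, 319 and 886; 3.13%, 4.31% and 7.58%) and removed. Beta-like cells had insulin at 30% of UMIs or more, Gcg and Sst under 2%, and Ppy with Pyy under 10%. Alpha-like and delta-like cells had 5% or more Gcg or Sst, and gamma-like cells 20% or more Ppy with Pyy, with insulin under 20%. Endothelial-like cells had at least 4 of their markers and 0.2% of UMIs. These limits were set after the distributions were seen; 228, 59 and 73 beta-like cells (WT, ASF-KO, SC35-KO) had insulin under 40%, and 815, 520 and 797 cells (9.06%, 7.34% and 7.38%) fell in no class. Joint clusters used 2000 variable genes, 30 principal components, 15 neighbours and Leiden resolution 1.

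UMIs were summed per class and library. Sums carry exact Poisson intervals and ratios the exact conditional binomial interval, both for counting error only; the quotient of 2 folds has a log-normal counting interval. The genes given with values are, by rule, the highest and lowest of each complex, paralogues, and the extremes of each neighbouring list; a few others were chosen after their values were seen. The members, gene lists and comparisons were chosen with earlier results of these data known. Alternatives were other cell filters, doublets kept, clusters for gates, equal weight per cell, thinning, other scalings, CPM minimums and fold limits, and, added after seeing the data, cells without acinar RNA and narrower gates. Statistics were computed with scipy 1.17.1, numpy 2.4.6 and pandas 2.3.3 in python 3.11.15.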

Additional observations from a re-analysis of the deposited data

How the results depend on the processing

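The counts of members in beta-like and alpha-like cells were recomputed under 15 alternatives each; 105 stayed within 1.5 times the value given and 15 did not, as follows. In CPM as it stands, 11 members were higher and 1 lower in beta-like cells under ASF-KO, 0 and 5 under SC35-KO, and 2 were lower in alpha-like cells under SC35-KO. At a lower fold limit than 1.5, 1 was lower in beta-like cells under ASF-KO, 15 were higher and 2 lower under SC35-KO, 9 were lower in alpha-like cells under ASF-KO, and 8 were higher and 2 lower under SC35-KO. At 2-fold, 11 and 0 were higher in beta-like cells under ASF-KO and SC35-KO, and 0 in alpha-like cells under SC35-KO. With cells thinned to 5000 UMIs, 1 was lower in alpha-like cells under SC35-KO. Apart from CPM as it stands, 20 of the 23 members called higher in beta-like cells under ASF-KO kept 1.5-fold under every scaling, filter, gate and weighting tried (not Sec63, Spcs3 and Tmed10), as did 6 of the 7 under SC35-KO (not Ostc), the 3 lower in alpha-like cells under ASF-KO and the 3 higher under SC35-KO. In the smaller classes 133 counts stayed within 1.5 times and 47 did not, all of them for counts given as 4 or fewer. For gamma-like cells under ASF-KO, 2 were higher with clusters in place of gates and 1 with cells thinned. For endothelial-like cells under ASF-KO, 5 were higher with cells thinned, and under SC35-KO, 6 were higher and 1 lower with clusters in place of gates. With hormone and mitochondrial genes left out of the total, 5 were higher in gamma-like cells under SC35-KO, and 0 lower in gamma-like and delta-like cells. In the looser cell filter Scrublet marked 0 cells of the ASF-KO library, so doublets stayed in it. No paired analysis was possible because each genotype had 1 library. Depth limits gamma-like and endothelial-like values and Kdelr3, and the spread between mice is not known for any value.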
